A study of Sus scrofa with 20 samples.

Results

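MFNG, the manic fringe glycosyltransferase, and 6 genes of the Notch pathway were described in epicardial adipose tissue, the fat that lies on the heart muscle, of Ossabaw miniature pigs. The 6 are the ligand genes DLL1, DLL4 and JAG1 and the receptor genes NOTCH1, NOTCH3 and NOTCH4. MFNG was taken because it stood among the genes with the smallest p in the comparison of the 2 diets under atorvastatin, so that comparison is given for all 7 genes as a description with no test. The other 6 were taken as the ligands and receptors that MFNG or its relatives act on. Each gene was found by its name in 2 tables of read counts deposited per library. The first table held 6 of the 7 among 22861 rows, with NOTCH1 having no named row. The second table held 6 of the 7 among 10157 rows, with MFNG having none.

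The libraries came from 3 groups of animals. The 8 pigs of the WD+S group were given atorvastatin, an inhibitor of cholesterol synthesis, and a Western diet, in which saturated fat, refined grain and cholesterol were plentiful. The 6 pigs of the HHD+S group were given the same drug and a Heart Healthy diet, built on unrefined grain, vegetables, fruit and unsaturated fat. The 6 pigs of the HHD group ate the Heart Healthy diet with no drug. The diet label of the WD+S libraries reads atherogenic and was taken as the Western diet of the series. Pigs on the Western diet without the drug were not analysed here, so the diet comparison between undrugged pigs and the interaction of diet and drug cannot be given. The labels give no age, dose, sex or batch for a library.

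Notch receptors are single-pass membrane proteins that are activated by ligands on a neighbouring cell. Ligand binding leads to cleavage of the receptor by an ADAM protease and then by the gamma-secretase complex, and the freed intracellular part enters the nucleus, binds RBPJ together with a Mastermind co-activator, and turns on genes such as those of the HES and HEY families. Fringe enzymes, of which mammals have lunatic (LFNG), manic (MFNG) and radical (RFNG) forms, add N-acetylglucosamine to O-linked fucose on the receptor and so change how strongly it responds to Delta-like and Jagged ligands. In blood vessels DLL4 and NOTCH1 act between endothelial cells in sprouting and in arterial identity, NOTCH4 is largely endothelial, and NOTCH3 belongs to smooth muscle cells and pericytes. Sequences of these pig genes were not analysed here.

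Depth in the first table ran from 2749337 to 6543337 reads, the median library having 3849195.5, and levels are given as CPM, the reads of a gene scaled to a common library total with edgeR's TMM factors. The tissue carried the defining transcripts of fat: adiponectin (ADIPOQ) averaged 6012, 7426 and 7588 CPM in WD+S, HHD+S and HHD, and none of the 12 adipocyte markers was at 0 in any library. Some libraries stood apart. HHD replicates 3 and 5 held reads both of XIST and of Y-linked genes, which separate the remaining libraries cleanly, and HHD+S replicates 5 and 6 were rich in immune transcripts, with the lymphocyte list reaching 270.0 CPM against at most 83.4 in WD+S and 58.4 in HHD. The file names carry a pool number whose meaning is not stated. Pool 1 held 4 libraries of each group, and pool 2 held 4 of WD+S, 2 of HHD+S and 2 of HHD. Medians of the summed markers of several cell types also differed between the groups, though the ranges overlapped. In WD+S, HHD+S and HHD the 8 neural markers had medians of 2272, 999.3 and 1088 CPM. The 11 cardiomyocyte markers had medians of 1017, 467.0 and 517.4 CPM in the same order. Those of the 7 adipocyte markers in the first table were 2059, 2948 and 2982 CPM, with overlapping ranges. For the 9 fibroblast markers they were 20005, 18048 and 26842 CPM. The neural, cardiomyocyte and fibroblast ranges overlapped too. The cardiomyocyte sum ran from 280 to 5350 CPM in WD+S, from 40.0 to 1341 in HHD+S and from 96.7 to 1049 in HHD. The part of these cell types in the results was not tested.

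MFNG, Ensembl gene ENSSSCG00000030209 in the first table, was the lowest and the most even in WD+S. Its level there was 81.0 CPM in the lowest library, 86.9 at the median and 98.2 in the highest, which gave 88.7 ± 6.22 CPM (SD, n = 8). In HHD+S the lowest, median and highest values were 87.1, 147.3 and 151.0 CPM, with a mean of 133.2 ± 25.8 (SD, n = 6). In HHD they were 93.2, 109.0 and 146.7 CPM, with a mean of 113.7 ± 18.7 (SD, n = 6). Of the HHD+S libraries, 5 of 6 stood above every WD+S library, and only replicate 2, at 87.1 CPM, lay inside the WD+S range. Of the HHD libraries, 5 of 6 stood above every WD+S library, and replicate 5, at 93.2 CPM, lay inside it. The HHD+S and HHD ranges overlapped almost wholly, with 3 HHD+S libraries above the highest HHD library by a few CPM.

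**Figure D1:**
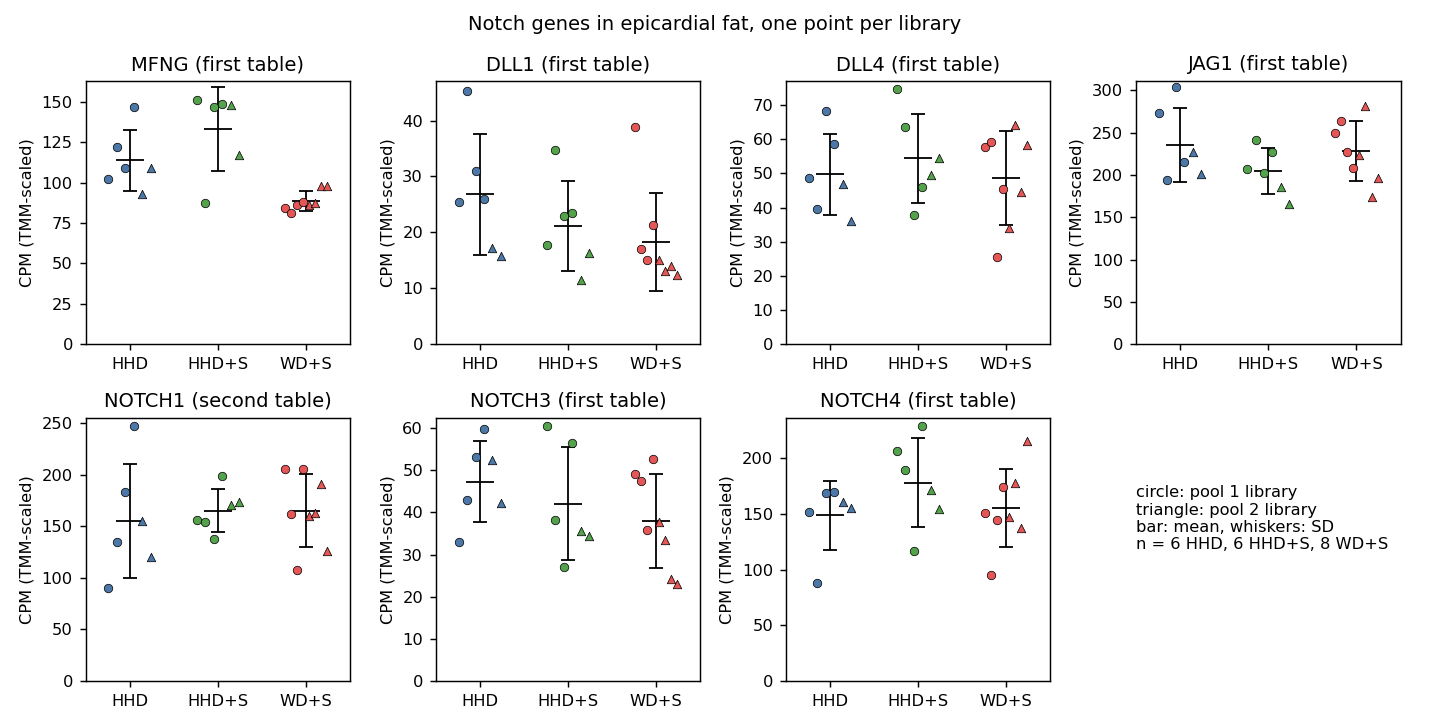
Level of each of the 7 genes (y axis, CPM on TMM-scaled library totals, from 0) in every library of the 3 groups (x axis), with circles for pool 1, triangles for pool 2, and the mean and SD as bars. MFNG lies between 81.0 and 98.2 CPM in all 8 WD+S libraries. The groups of all 7 genes overlap in every comparison. For NOTCH4, 4 of 6 HHD+S libraries lie above every HHD library, and for DLL1, 5 of 8 WD+S libraries lie below every HHD library.

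The log2 fold change of MFNG in WD+S against HHD+S, the comparison on which it was chosen, was -0.59 (SE 0.12), or 0.667 times the HHD+S level. Taken within pools, the difference in mean log2 CPM was -0.61 in pool 1 and -0.51 in pool 2. Without HHD+S replicate 2 the fold change was -0.68, and over all 20 omissions of a single library it lay between -0.68 and -0.55. Against HHD, a comparison that shares the WD+S libraries with the first, the log2 fold change of WD+S was -0.36 (SE 0.12, 95% interval -0.60 to -0.11), with an unadjusted p of 0.0059 and an edgeR adjusted p of 0.23, so MFNG did not pass the threshold of 0.05. MFNG was chosen on these same 8 WD+S libraries and on those of HHD+S. P-values of MFNG that use either group are therefore not independent of that choice. The within-pool differences were -0.48 in pool 1 and -0.13 in pool 2. In HHD+S against HHD, which shares the HHD+S libraries, the log2 fold change was 0.23 (SE 0.13, 95% interval -0.037 to 0.49, edgeR adjusted p = 0.65), with 0.13 in pool 1 and 0.39 in pool 2.

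Across 11366 tested genes of the first table and 6685 of the second, edgeR called 0 (0%) at an adjusted p of 0.05 in each of the 3 comparisons. At an unadjusted p under 0.05 the first table held 960 genes (8.45%) in HHD+S against HHD, 988 (8.69%) in WD+S against HHD+S and 1299 (11.4%) in WD+S against HHD, and the second 8.72%, 8.18% and 11.1% of its genes. DESeq2 called 14, 13 and 80 genes in these comparisons and limma-voom called 0, 4 and 0. MFNG was the 1 member of the 7 under an unadjusted p of 0.05 in WD+S against HHD. None of the 7 was under it in HHD+S against HHD. No member had groups that did not overlap, in any comparison. In the order above, such separation was seen for 0.114%, 0.0704% and 0.194% of first-table genes and for 0.224%, 0.12% and 0.404% of second-table genes.

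The spread of MFNG is given as a description only, since choosing a gene by its p in a comparison with WD+S favours a small spread there. Its coefficient of variation was 7.02% in WD+S, beside 5.35% from read counting alone on 264 to 616 reads per library. In HHD+S it was 19.4% and in HHD 16.4%, against 4.57% and 4.75% from counting. On the log2 scale the SD of MFNG among WD+S libraries was 0.099, beside a median of 0.27 over all genes tested, and 2.08% of genes had a smaller SD. In HHD+S its SD of 0.32 was larger than that of 53.8% of genes. A test that these spreads differ was not made.

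The fringe enzymes LFNG and RFNG gave a mixed picture. LFNG, like MFNG, modifies O-fucose on Notch receptors. Its level in WD+S was 63.5, 74.5 and 117.0 CPM in the lowest, median and highest library, against 76.4, 105.5 and 130.4 CPM across HHD+S and 75.8, 120.3 and 148.8 CPM in HHD. Of the 8 WD+S libraries 5 lay below every HHD library, 4 of the 6 HHD libraries lay above every WD+S library, and the remainder overlapped. The log2 fold change of LFNG in WD+S against HHD was -0.40 (SE 0.17, unadjusted p = 0.028, edgeR adjusted p = 0.35), and in WD+S against HHD+S it was -0.28 (SE 0.17, edgeR adjusted p = 0.69). RFNG averaged 75.2 ± 9.18 CPM in WD+S (n = 8), 81.7 ± 12.0 in HHD+S (n = 6) and 72.0 ± 17.7 in HHD (n = 6) in the second table, with a log2 fold change of 0.061 (SE 0.13) in WD+S against HHD.

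POFUT1, which adds the O-fucose that fringe enzymes extend, averaged 44.2 ± 8.67 CPM in HHD+S (n = 6), 53.5 ± 8.10 in WD+S (n = 8) and 56.6 ± 13.3 in HHD (n = 6). Its log2 fold change was -0.36 (SE 0.16, unadjusted p = 0.034, edgeR adjusted p = 0.56) in HHD+S against HHD and 0.28 (SE 0.15, edgeR adjusted p = 0.63) in WD+S against HHD+S. The 4 glycosylation genes listed beside MFNG, which are LFNG, RFNG, POFUT1 and POGLUT1, were all tested, and edgeR called 0 of them in any comparison.

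Because MFNG is a transcript of endothelial and other cells and whole tissue was sequenced, fewer cells of a type and less RNA per cell cannot be told apart in any of these levels. The summed level of endothelial markers was also lower in WD+S than in HHD+S, although no single marker passed the test. Endothelium was not alone in this. The median sums of adipocyte markers, 2059 against 2948 CPM, and macrophage markers, 794.8 against 928.9 CPM, were lower too, with overlapping ranges. Those of neural, cardiomyocyte and fibroblast markers were higher. The 15 of 20 listed endothelial genes that the first table names summed to between 1997 and 2663 CPM in WD+S, between 2551 and 2890 CPM in HHD+S and between 1911 and 3210 CPM in HHD. Of the 8 WD+S libraries 7 lay below every HHD+S library in this sum, and the difference in mean log2 sum was -0.25, against -0.56 for MFNG itself on the same scale. The mean sums differed by -424 CPM, of which -325 CPM came from PECAM1, an adhesion molecule of endothelial junctions, and ENG, a co-receptor for TGF-beta ligands. PECAM1 averaged 826 CPM in WD+S against 1034 in HHD+S, and ENG 282 against 399. Among all 20 endothelial genes 17 had a negative and 3 a positive log2 fold change, KDR at 0.15 and CLDN5 at 0.17 among the latter, and the lowest edgeR adjusted p was 0.36. Of all genes tested, 5890 of 11366 in the first table and 3456 of 6685 in the second had a negative value in this comparison. Against HHD the difference in mean log2 sum was -0.11, and each of the 8 WD+S libraries lay above the lowest HHD library. The part of the endothelial level in the MFNG difference was not tested. None of the 20 endothelial genes was at 0 in any library.

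Read as a share of that endothelial sum, MFNG came to 3.97% ± 0.519 in WD+S (n = 8), 5.02% ± 1.15 in HHD+S (n = 6) and 4.74% ± 1.09 in HHD (n = 6). The lowest, median and highest shares were 3.17%, 4.02% and 4.91% in WD+S, 3.01%, 5.64% and 5.84% in HHD+S, and 3.39%, 4.70% and 5.98% in HHD. Of the 6 HHD+S libraries 4 lay above every WD+S library, and replicate 2 lay below them all. The difference in mean log2 ratio in WD+S against HHD+S was -0.31, with -0.45 in pool 1, -0.16 in pool 2 and -0.45 without HHD+S replicate 2. With PECAM1 as the only denominator it was -0.24.

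Between WD+S and HHD the log2 ratio differed by -0.23, and a two-sided exact permutation test over the 14 libraries gave p = 0.13. As above, this p and those that follow use WD+S or HHD+S libraries, on which MFNG was chosen, and are no independent support. This result depended on HHD replicate 3, which like replicate 5 held reads of XIST and of Y-linked genes. Without replicate 3 alone the difference was -0.32 (exact permutation p = 0.034). Without replicates 3 and 5 it was -0.40 (exact permutation p = 0.020). With PECAM1 as the denominator it was -0.095 (exact permutation p = 0.56). In pool 1 it was -0.35 and in pool 2 -0.14. In HHD+S against HHD the log2 ratio differed by 0.077 (exact permutation p = 0.72), and it changed sign, to -0.090, without HHD replicates 3 and 5.

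**Figure D2:**
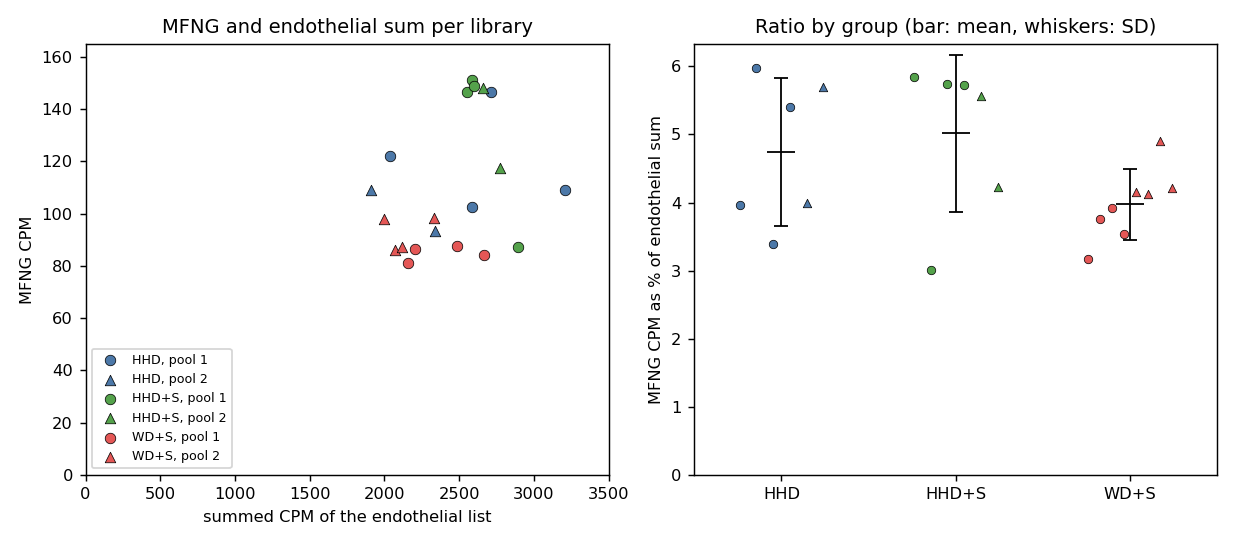
Left, MFNG (y axis, CPM) against the summed CPM of 15 endothelial genes (x axis) with 1 point per library. Right, MFNG as a percentage of that sum by group, with mean and SD; the WD+S libraries lie between 3.17% and 4.91%, and HHD+S replicate 2, at 3.01%, is the lowest of all 20.

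MFNG has no overlapping gene in the RefSeq annotation of Sscrofa11.1, a later build than that of the files, where it lies on chromosome 5 between CARD10 and ELFN2. Of the 3 protein-coding genes on either side, ELFN2 has no row in either table and LGALS2 is listed at 0 in every library. The log2 fold changes in WD+S against HHD+S were -0.13 (SE 0.16) for CDC42EP1 and -0.30 (SE 0.15) for CARD10 on one side. On the other side they were -0.39 (SE 0.30) for CYTH4, an exchange factor of blood cells, and -0.996 (SE 0.43) for RAC2, a GTPase of white blood cells. MFNG itself stood at -0.59 (SE 0.12). The library kit does not mark strand, so reads of a gene and of a transcript on the opposite strand cannot be told apart; NOTCH4 overlaps a long non-coding RNA and NOTCH3 a neighbouring protein-coding locus in the same annotation.

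Among the ligands, DLL1, a Delta-like ligand that fringe-modified receptors bind more readily, was the member lowest in CPM and the most variable. Its lowest, median and highest values were 12.4, 15.001 and 38.9 CPM across WD+S, 11.5, 20.3 and 34.7 CPM across HHD+S and 15.7, 25.7 and 45.3 CPM in HHD. All 3 groups overlapped, and WD+S replicate 1, at 38.9 CPM, stood far above the other 7 WD+S libraries, which did not exceed 21.3 CPM. Of the 8 WD+S libraries 5 lay below every HHD library (4 by the second table), and 1 of the 6 HHD libraries lay above every WD+S library. The means were 18.3 ± 8.74 CPM in WD+S (n = 8), 21.1 ± 8.02 in HHD+S (n = 6) and 26.8 ± 10.7 in HHD (n = 6). Between WD+S and HHD the log2 fold change was -0.56 (SE 0.28, 95% interval -1.13 to 0.014, unadjusted p = 0.056, edgeR adjusted p = 0.45), in HHD+S against HHD it was -0.34 (SE 0.30, 95% interval -0.95 to 0.28, edgeR adjusted p = 0.79), and in WD+S against HHD+S it was -0.22 (SE 0.28). Without WD+S replicate 1 the value in WD+S against HHD was -0.80 (edgeR adjusted p = 0.10), and without HHD replicate 2, the highest library, it was -0.35 (edgeR adjusted p = 0.71). The value in HHD+S against HHD ran from -0.55 without HHD+S replicate 2 to -0.13 without HHD replicate 2. In WD+S against HHD+S it ran from -0.46 without WD+S replicate 1 to -0.012 without HHD+S replicate 2.

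DLL1 differed between pools in every group. In WD+S the 4 pool 2 libraries stood between 12.4 and 14.99 CPM, at a mean of 13.6 CPM. The 4 of pool 1 stood between 15.01 and 38.9 CPM, at a mean of 23.0 CPM. The gap between the pools was thus very narrow there, and the pool 1 mean includes the outlying replicate 1. The pool means were 24.7 and 13.9 CPM in HHD+S and 31.9 and 16.5 CPM in HHD, for pools 1 and 2. Within each group all pool 2 libraries lay below all pool 1 libraries, a pattern noticed after the values were seen that 0.0968% of first-table genes share (11 of 11366). None of the other 6 members showed it. With pool as a term in the fit the log2 fold change in WD+S against HHD was -0.40 (SE 0.20, edgeR adjusted p = 0.52), in HHD+S against HHD -0.33 (SE 0.21, edgeR adjusted p = 0.70) and in WD+S against HHD+S -0.074 (SE 0.20). For WD+S against HHD, within pools the difference was -0.52 in pool 1 and -0.26 in pool 2.

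DLL4, the Delta-like ligand of endothelial tip cells, showed little separation. It ran from 25.6 to 64.1 CPM with a median of 51.7 in WD+S, from 37.8 to 74.6 with a median of 52.1 in HHD+S, and from 36.2 to 68.1 with a median of 47.7 in HHD. The 3 ranges overlapped, with 2 WD+S libraries below all others. Its log2 fold change was 0.13 (SE 0.21, 95% interval -0.30 to 0.56, edgeR adjusted p = 0.90) in HHD+S against HHD, -0.030 (SE 0.19, 95% interval -0.43 to 0.37, edgeR adjusted p = 0.97) in WD+S against HHD and -0.16 (SE 0.19) in WD+S against HHD+S.

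JAG1, a Jagged ligand made by endothelial and smooth muscle cells, was the ligand highest in CPM. Its lowest, median and highest values were 174.0, 225.5 and 281.6 CPM across WD+S, 165.3, 204.6 and 241.6 CPM across HHD+S, and 193.5, 221.3 and 304.0 CPM in HHD. HHD+S lay lowest at the mean, 204.7 ± 27.5 CPM (n = 6) against 228.1 ± 35.8 in WD+S (n = 8) and 235.8 ± 43.7 in HHD (n = 6), and all 3 groups overlapped. For JAG1 the log2 fold change was -0.20 (SE 0.13, 95% interval -0.48 to 0.071, edgeR adjusted p = 0.70) in HHD+S against HHD, -0.049 (SE 0.12, edgeR adjusted p = 0.92) in WD+S against HHD and 0.16 (SE 0.12) in WD+S against HHD+S. In the second table the last of these was 0.27 (SE 0.15). The tables differ in how many reads they assign to JAG1: the first held between 137% and 216% of the second-table reads in a library, against 95.8% to 104% for DLL1 and 95.8% to 100% for DLL4. JAG2, the other Jagged ligand, averaged 30.7 ± 4.96 CPM in WD+S (n = 8), 33.0 ± 8.03 in HHD+S (n = 6) and 39.2 ± 14.9 in HHD (n = 6), and its log2 fold change in WD+S against HHD was -0.36 (SE 0.19, edgeR adjusted p = 0.49). DLL3 had 0 reads in every library, and DLK1 had at most 1. Taken for a single library, a count of 0 allows an expected count of up to about 3 (95% limit).

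Among the receptors, NOTCH1, read from the second table only, had nearly the same mean in all groups. Its lowest, median and highest values were 107.6, 162.3 and 206.0 CPM across WD+S, 137.6, 163.6 and 198.7 CPM across HHD+S, and 90.4, 145.5 and 247.7 CPM in HHD. The HHD libraries spanned the widest range and held both the lowest and the highest of all 20. NOTCH1 had a log2 fold change of 0.086 (SE 0.19, 95% interval -0.32 to 0.49, edgeR adjusted p = 0.93) in HHD+S against HHD, 0.086 (SE 0.18, 95% interval -0.29 to 0.46, edgeR adjusted p = 0.89) in WD+S against HHD, and 0.00063 (SE 0.18) in WD+S against HHD+S.

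NOTCH3, the receptor of vascular smooth muscle and pericytes, was split over 2 rows of the first table. The row bearing its name (ENSSSCG00000023899) held between 13.2% and 30.5% of the reads of both, and the second row (ENSSSCG00000025176), which has only an identifier, was given the symbol by the reference list of gene names. The named row stood at 23.0, 36.8 and 52.6 CPM in the lowest, median and highest WD+S library, at 27.1, 36.9 and 60.6 CPM in HHD+S and at 33.0, 47.7 and 59.7 CPM in HHD. Both rows together averaged 167.6 ± 45.6 CPM in WD+S (n = 8), 198.2 ± 29.0 in HHD+S (n = 6) and 189.3 ± 34.5 in HHD (n = 6), with all groups overlapping. The log2 fold change in WD+S against HHD was -0.32 (SE 0.20, edgeR adjusted p = 0.58) for the named row, -0.13 (SE 0.16, edgeR adjusted p = 0.80) for the identifier row and -0.17 (SE 0.17, edgeR adjusted p = 0.75) in the second table. Between WD+S and HHD+S these values were -0.15 (SE 0.21), -0.27 (SE 0.16) and -0.21 (SE 0.17). In HHD+S against HHD they were -0.18 (SE 0.22), 0.13 (SE 0.18) and 0.036 (SE 0.18), so the sign depended on the row. The difference in the named row between WD+S and HHD was -0.0100 in pool 1 and -0.69 in pool 2.

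NOTCH4, an endothelial receptor, had its highest mean in HHD+S. Its lowest, median and highest values were 95.1, 149.1 and 215.0 CPM across WD+S, 117.1, 180.3 and 229.2 CPM across HHD+S, and 87.5, 157.7 and 169.6 CPM in HHD. Of the 6 HHD+S libraries 4 stood above every HHD library, and HHD replicate 2, at 87.5 CPM, stood far below the other 5 HHD libraries, which began at 151.9 CPM. NOTCH4 had a log2 fold change in HHD+S against HHD of 0.26 (SE 0.18, 95% interval -0.12 to 0.63, edgeR adjusted p = 0.73), with 0.36 in pool 1 and 0.043 in pool 2, and without HHD replicate 2 it was 0.14. In WD+S against HHD+S it was -0.20 (SE 0.17), with -0.38 in pool 1 and 0.037 in pool 2, and in WD+S against HHD it was 0.059 (SE 0.17, edgeR adjusted p = 0.93). NOTCH2, the remaining receptor, averaged 121.1, 102.8 and 116.8 CPM in WD+S, HHD+S and HHD by the first table, which held only 17.3% to 53.9% of its second-table reads. By the second table the means were 295.0, 293.7 and 328.7 CPM.

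**Figure D3:**
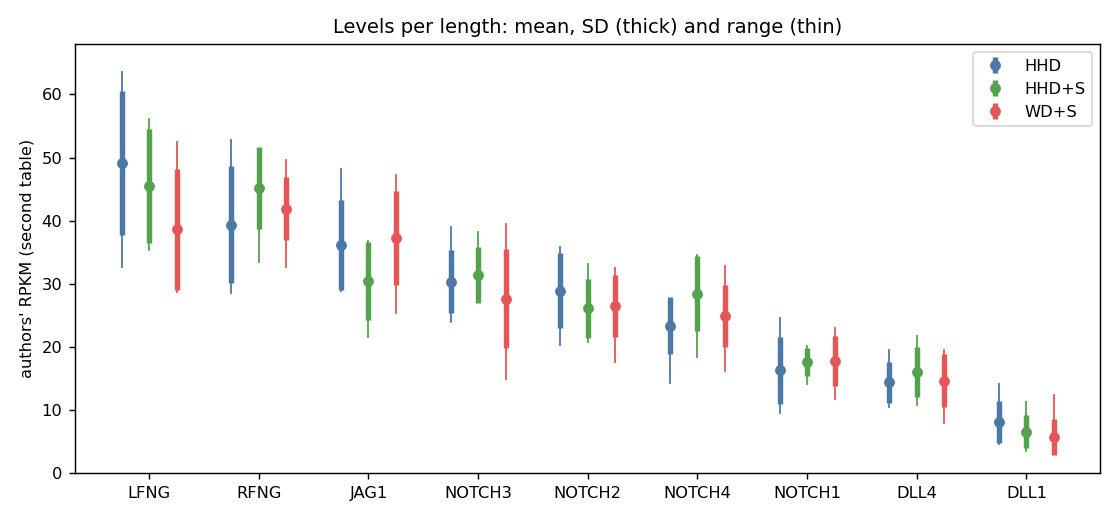
Level per length of the 9 fringe, ligand and receptor genes of the second table (y axis, the authors' RPKM) in HHD, HHD+S and WD+S, with the mean as a point, the SD as a thick bar and the range as a thin line. LFNG and RFNG have the 2 highest means and DLL1 the lowest in every group, while JAG1 is next in HHD and WD+S and NOTCH3 is next in HHD+S.

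Levels per length of different genes were compared with the authors' deposited RPKM of the second table, which holds no MFNG. The orders by CPM given above take no account of length. Over all 20 libraries the mean RPKM was 43.8 ± 10.5 for LFNG, 42.1 ± 6.96 for RFNG, 34.9 ± 7.28 for JAG1, 29.6 ± 6.11 for NOTCH3, 27.1 ± 5.04 for NOTCH2, 25.5 ± 5.29 for NOTCH4, 17.2 ± 3.85 for NOTCH1, 14.97 ± 3.74 for DLL4 and 6.67 ± 2.96 for DLL1 (SD, n = 20). Most neighbours in this order changed places from library to library: LFNG was above RFNG in 10 of 20 libraries, NOTCH3 above NOTCH2 in 12, NOTCH2 above NOTCH4 in 11 and NOTCH1 above DLL4 in 13. The steps from NOTCH4 to NOTCH1, in 18 of 20 libraries, and from DLL4 to DLL1, in 19 of 20 and by a median ratio of 2.19, were more regular. By group means the HHD libraries kept the pooled order, whereas RFNG stood above LFNG in WD+S (41.9 against 38.6 RPKM). In HHD+S, NOTCH3 stood above JAG1 (31.4 against 30.5 RPKM) and NOTCH4 above NOTCH2 (28.4 against 26.1 RPKM).

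The wider pathway was described with lists of 59 genes grouped by role, of which 56 had a row and 51 passed the filter on low counts, 10 of them read from the second table. Without the 7 genes described above, 44 of them were tested. Of these 44, edgeR, DESeq2 and limma-voom called 0 in any comparison. At an unadjusted p under 0.05 stood 1 higher and 2 lower genes in HHD+S against HHD, 2 higher and 0 lower in WD+S against HHD+S, and 3 higher and 1 lower in WD+S against HHD, which is 6.82%, 4.55% and 9.09% of the 44 beside 8.45%, 8.69% and 11.4% of all first-table genes. The median log2 fold change of the 44 was 0.016, -0.060 and -0.0050, beside -0.012, -0.0083 and -0.019 for all genes.

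**Figure D4:**
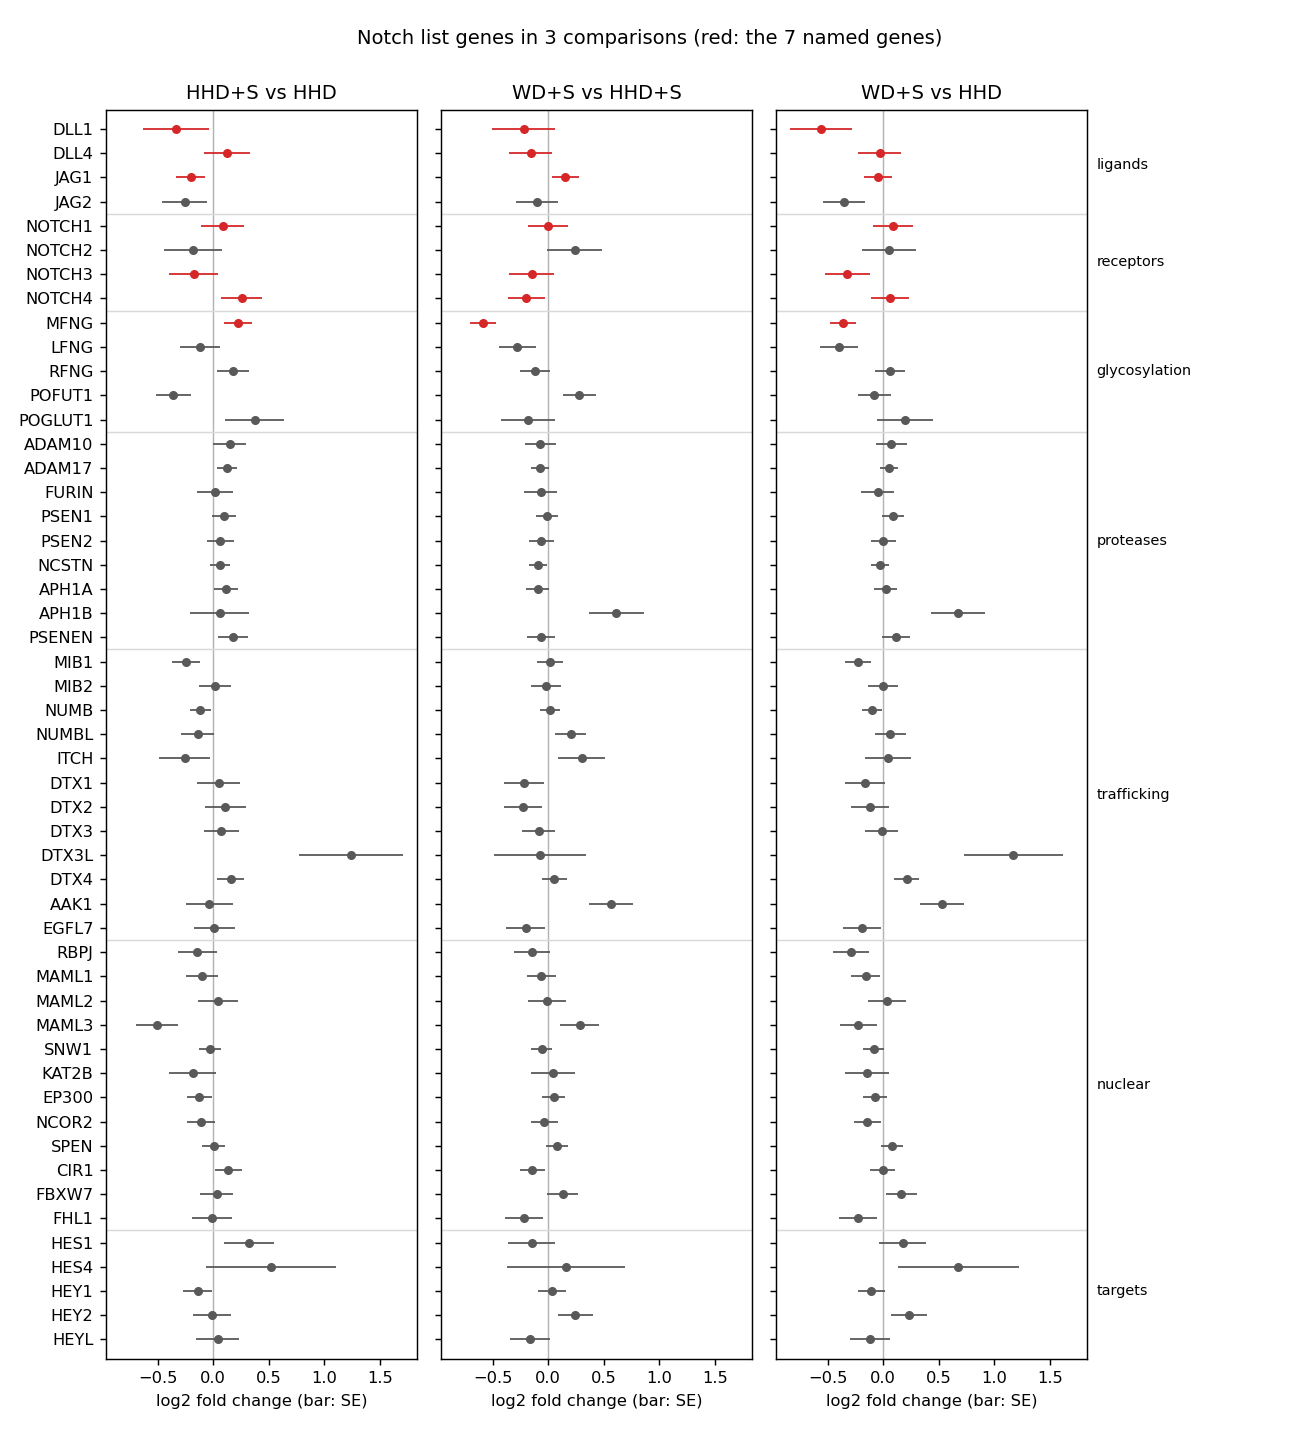
Log2 fold change with its SE (x axis) of the 51 tested Notch genes, grouped by role (y axis), in the 3 comparisons, with the 7 named genes in red. Most points lie close to 0, and DTX3L, at 1.24 and 1.17, lies farthest to the right in the comparisons with HHD.

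The gene farthest from 0 was DTX3L, a Deltex-family ubiquitin ligase that also works with PARP9 in the interferon response. It averaged 14.6 ± 12.6 CPM in HHD+S (n = 6), 13.8 ± 8.51 in WD+S (n = 8) and 6.17 ± 1.91 in HHD (n = 6). Its highest libraries were the immune-rich HHD+S replicates 5 and 6 and, in WD+S, replicate 8 at 33.4 CPM, while the HHD+S median was only 7.45 CPM. The log2 fold change was 1.24 (SE 0.47, unadjusted p = 0.014, edgeR adjusted p = 0.48) in HHD+S against HHD and 1.17 (SE 0.44, edgeR adjusted p = 0.29) in WD+S against HHD.

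AAK1 and APH1B, genes of receptor handling, had higher means in WD+S than in both other groups. AAK1, a kinase of clathrin-coated vesicles that also binds Notch, averaged 23.5 ± 5.56 CPM in WD+S (n = 8), 15.9 ± 4.76 in HHD+S (n = 6) and 16.4 ± 3.76 in HHD (n = 6), with log2 fold changes of 0.56 (SE 0.20, edgeR adjusted p = 0.38) against HHD+S and 0.53 (SE 0.19, edgeR adjusted p = 0.27) against HHD. APH1B, a gamma-secretase subunit, averaged 5.65 ± 1.31, 3.67 ± 1.34 and 3.56 ± 1.24 CPM in the same order, on 7 to 43 reads per library, with log2 fold changes of 0.61 (SE 0.25, edgeR adjusted p = 0.45) and 0.67 (SE 0.24, edgeR adjusted p = 0.27). The WD+S range of each overlapped both others. The comparisons share the WD+S libraries. The other 8 genes of the cleavage step, from ADAM10 and ADAM17 to the presenilins, lay between -0.094 and -0.013 in WD+S against HHD+S.

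In the nucleus, RBPJ, the DNA-binding partner of cleaved Notch, averaged 77.7 ± 15.3 CPM in WD+S (n = 8), 85.8 ± 12.8 in HHD+S (n = 6) and 94.9 ± 28.0 in HHD (n = 6). MAML3, a Mastermind co-activator, averaged 8.04 ± 1.96 CPM in HHD+S (n = 6) and 11.4 ± 2.32 in HHD (n = 6), a log2 fold change of -0.51 (SE 0.19, unadjusted p = 0.013, edgeR adjusted p = 0.47) in HHD+S against HHD. MIB1, the ubiquitin ligase that lets ligands be taken up, averaged 17.0 ± 2.28 CPM in HHD+S (n = 6) and 20.2 ± 2.97 in HHD (n = 6), and in the same comparison its log2 fold change was -0.24 (SE 0.13, edgeR adjusted p = 0.62).

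The target genes of the pathway, which here are those of the HES and HEY transcriptional repressors and NRARP, gave differences of both signs. Of 8 listed, 5 were tested and 0 were called in any comparison. HES1 averaged 53.0 ± 16.0 CPM in WD+S (n = 8), 58.6 ± 16.6 in HHD+S (n = 6) and 46.8 ± 13.0 in HHD (n = 6). HEY1 averaged 25.5 ± 3.34, 24.8 ± 3.61 and 27.5 ± 4.37 CPM, HEY2 37.5 ± 9.39, 31.8 ± 6.55 and 32.0 ± 3.75 CPM, and HEYL 66.4 ± 16.6, 74.2 ± 19.0 and 72.0 ± 12.2 CPM in the same order. HES4 averaged 6.13 ± 3.89, 5.48 ± 6.21 and 3.82 ± 1.96 CPM in that order, on 2 to 67 reads per library. Between WD+S and HHD+S the 5 log2 fold changes ran from -0.16 to 0.25. In HHD+S against HHD they ran from -0.14 to 0.52, and in WD+S against HHD from -0.12 to 0.68. HES4 was the highest in both, with SEs of 0.58 and 0.54 (edgeR adjusted p = 0.85 and 0.69). NRARP, a feedback inhibitor of Notch, did not pass the filter, on 1 to 15 reads per library.

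Across the 20 libraries, with group means subtracted from log2 CPM, the 7 genes followed each other only loosely. NOTCH3 stands here for its named row alone, which held between 13.2% and 30.5% of the reads of both NOTCH3 rows. The highest of the 21 pairwise correlations was that of NOTCH1 and NOTCH3, with Pearson's r of 0.56 (permutation p = 0.0072, Benjamini-Hochberg adjusted over 21 pairs 0.15) and Spearman's rho of 0.51 (permutation p = 0.021, adjusted 0.35). It was 0.46 without the 2 libraries farthest from the median of NOTCH1, 0.70 in pool 1 and 0.18 in pool 2. DLL4 and NOTCH1, a ligand and receptor of endothelium, had r of 0.41 (permutation p = 0.080, adjusted 0.53) and rho of 0.33 (permutation p = 0.18, adjusted 0.50), with r of 0.20 without the 2 farthest libraries. MFNG had its most negative coefficient with JAG1, at r of -0.38 (permutation p = 0.11, adjusted 0.53) and rho of -0.26 (permutation p = 0.29, adjusted 0.50), with -0.25 without the 2 farthest, -0.55 in pool 1 and -0.23 in pool 2. No pair passed an adjusted p of 0.05 on either measure.

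**Figure D5:**
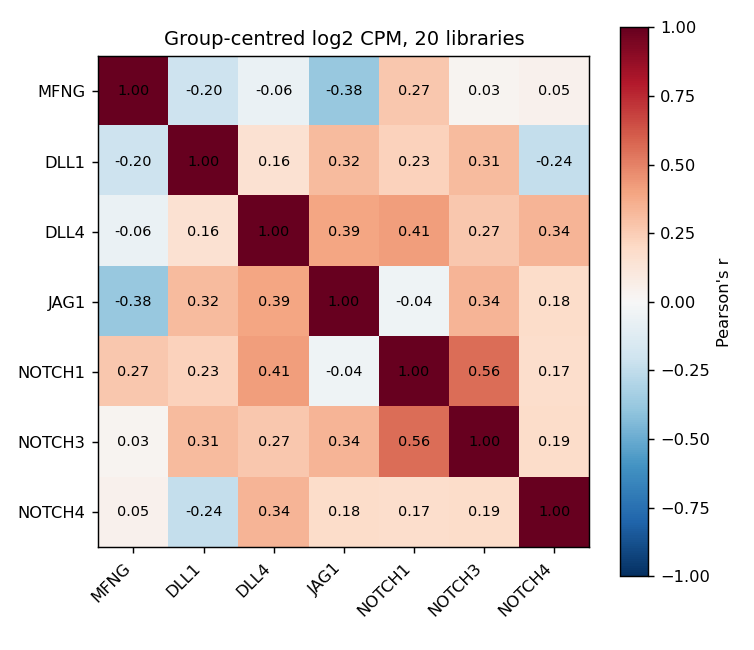
Pearson's r between each pair of the 7 genes (rows and columns) over 20 libraries after group means were subtracted from log2 CPM. NOTCH3 is given by its named row alone. Coefficients run from -0.38 for MFNG with JAG1 to 0.56 for NOTCH1 with NOTCH3.

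The genes most like each member in the same group-centred values, among 9229 named genes with a mean of at least 5 CPM over 20 libraries, were different for each. For MFNG they were GPT, at r of 0.82, TALDO1, FAH and MTG1, down to ANKRD54 at 0.75. For DLL1 they were EPHB4, at 0.81, SGK1, PLTP, SIRPD_1 and CXCL12, at 0.78. For JAG1 they were SPRY1, at 0.82, ELTD1, the VEGF receptor gene FLT-1, CCAR1 and ADAMTS9, at 0.76. The highest for NOTCH1 were ARHGEF17, at 0.87, and the endothelial junction gene CLDN5, at 0.84, and then COBRA1, CCDC88C and PIK3C2B. The highest for NOTCH3, again by its named row alone, were PAPLN, at 0.86, TRAM2, ZNF395, SLC35E2B and TRPM4. Those of DLL4 were FBXO38, at 0.78, ZNF609, PPP1R16B, MAPKBP1 and SIK1, and those of NOTCH4 were TBC1D20, at 0.82, PACSIN2, WBP1, F2RL2 and FZD4. These coefficients are the top of many and share libraries and depth, so they are given as a description.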

How the data were processed

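RNA of epicardial fat was sequenced in 20 libraries of 3 groups, taken from the diet labels. Per the labels' protocols, mRNA was purified from RNA with a quality indicator above 7 and made into libraries with a kit that leaves strand unmarked. The submitters' processing notes name bcl2fastq 2.17.1.14 and, as the build, Sscrofa10.2; the sources used here do not give the aligner or the counting program. Each library has 2 tables deposited by the authors. Raw counts of unique exon reads fill the first, which was used for all tests except those of genes that only the second table names. The other table has raw counts of unique gene reads beside RPKM values that, per the file headers, the authors computed, over a gene set whose origin is not stated. Per length levels are these RPKM values, which entered no test. First-table totals ran from 2749337 to 6543337 counts per library, and intervals from read counting cover counting error only.

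The quasi-likelihood F test of edgeR 4.0.16 under R 4.3.3 was applied with TMM scaling, its expression filter (minimum count 10, minimum total 15) and 1 fit over all 20 libraries, with Benjamini-Hochberg adjustment over all genes tested and a threshold of 0.05. SEs of log2 fold changes are approximate (the absolute fold change divided by the root of its F statistic), as are the 95% intervals, built on them with the t quantile of the test's degrees of freedom. Log2 CPM used a prior count of 2. Alternatives used DESeq2 1.42.0, limma-voom (limma 3.58.1) with quality weights, other scalings, no filter, pool or Y-linked level as a term, the second table, and omission of libraries. DESeq2 was run on all rows with its own filter. The fit and the correlation step were tested on simulated data. Ratios of MFNG to the endothelial sum were compared by two-sided exact permutation, and correlations by permutation within groups with 100000 draws.

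The 7 genes and all gene lists were chosen with earlier results of these data known, and pool as a term and the libraries set aside likewise. Named genes are the 7, in each comparison the 5 Notch list genes with the smallest unadjusted p (MFNG aside where it was chosen), and for each of the 7 the 5 most correlated genes; RBPJ, NRARP, other fringes, ligands, receptors and targets were named as list members. The neighbours of MFNG, the spread comparison and the pool pattern of DLL1 were added after values were seen. Titles differ in number between libraries, so each was taken as 1 animal; were that wrong, part of the spread behind the p-values would be technical. MFNG has 1 row, and reads shared with similar genes could not be checked.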

Additional observations from a re-analysis of the deposited data

Results flagged for a closer look

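In 24 groups of values checked for a single library far from the others, 2 libraries were picked out by a criterion that chance meets in about 1 group in 20. DLL1 stood at 38.9 CPM in WD+S replicate 1, far above the other 7 WD+S libraries. NOTCH4 stood at 87.5 CPM in HHD replicate 2, far below the other 5 HHD libraries.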

How the results depend on the processing

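No paired analysis was made, because the labels give no pairing of libraries between groups. The replicate numbers used here follow the order of deposit and pair nothing. The count of genes called by edgeR was 0 in each comparison. It became 14 with DESeq2 in HHD+S against HHD. In WD+S against HHD+S it became 1 in a fit of the compared groups alone, 4 with limma-voom and 13 with DESeq2, and lay between 0 and 1 when single libraries were left out, the 1 appearing without HHD+S replicate 2. In WD+S against HHD it became 1 in a fit of the compared groups alone, 1 without HHD+S replicates 5 and 6 and 80 with DESeq2, and lay between 0 and 22 when single libraries were left out, with 22 without WD+S replicate 1 and 14 without HHD replicate 6; the cause was not tested. Notch list genes other than MFNG called stayed at 0 under all 30 alternatives in each comparison. The MFNG log2 fold change kept its sign under all 30 alternatives, between 0.15 and 0.33 in HHD+S against HHD, between -0.68 and -0.55 in WD+S against HHD+S, and between -0.44 and -0.28 in WD+S against HHD, where the adjusted p ran from 0.14 to 0.45. MFNG per endothelial CPM changed sign in HHD+S against HHD, to -0.090 without HHD replicates 3 and 5 and to -0.013 without replicate 3 (range without single libraries -0.013 to 0.22), and in WD+S against HHD its permutation p, which is not independent of the choice of MFNG, fell under 0.05 without replicates 3 and 5, at -0.40, and without replicate 3, at -0.32 (range without single libraries -0.32 to -0.16). Small fold changes of the other members turned sign: NOTCH1 in HHD+S against HHD to -0.028 (range without single libraries -0.028 to 0.27) and in WD+S against HHD to -0.036 (-0.036 to 0.27), both without HHD replicate 1, and NOTCH3 in HHD+S against HHD to 0.036 in the second table. In WD+S against HHD, DLL4 turned to 0.086 without HHD replicates 3 and 5, and to between 0.016 and 0.082 without HHD replicate 3 or 4 or WD+S replicate 3 or 5 (range -0.11 to 0.082). There JAG1 turned to 0.044 without HHD replicates 3 and 5, 0.037 without replicate 3 (range -0.11 to 0.037), 0.014 with limma-voom and 0.0100 in the second table, and NOTCH4 to -0.023 without WD+S replicate 8 and -0.055 without HHD replicate 2 (range -0.055 to 0.14). DLL1, which the second table also holds, kept its sign under all 31 alternatives. It lay between -0.55 and -0.11 in HHD+S against HHD and between -0.46 and -0.012 in WD+S against HHD+S. In WD+S against HHD it lay between -0.80 and -0.35. The second table could not be used for MFNG or its ratio, since it has no MFNG row. DLL1 rests on 46 to 129 reads in WD+S, and counting alone gives it a coefficient of variation of 12.2% there.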
